A study of Homo sapiens with 6 samples.

Results

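The MYC, MAX and MXD network is a family of transcription factors that compete for 1 shared partner, MAX. Its members were taken as rows of the expression table whose symbol equals MYC, MYCN, MYCL, MAX, MXD1, MXD3, MXD4, MXI1, MNT or MGA. Of these 10 genes 9 have a row among 17911 genes; MYCN is not analysed here. RNA was sequenced from HL-60, an established human promyelocytic leukaemia line that carries extra copies of MYC. Cells exposed for 24 h to 10 uM amiodarone, a cationic amphiphilic antiarrhythmic drug, made up 3 libraries, and 3 libraries are labelled control, with no word on a vehicle. All libraries come from this 1 line with no genetic change labelled, and nothing in the labels says that replicates were separate cultures. The p-values then measure only how far these libraries scatter, which may be technical. The comparison asks which members differed between the 2 groups.

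Proteins of the network bind DNA as dimers through a basic helix-loop-helix leucine zipper. MYC pairs with MAX at E-boxes, of which CACGTG is the best known, and raises transcription of genes for ribosome production, nucleotide synthesis and cell division. MXD proteins and MNT pair with MAX at the same sites and recruit SIN3 and histone deacetylases, which repress. In myeloid cells MYC is known for high levels in dividing precursors, and MXD1 for rising as they mature.

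After amiodarone, MYC transcripts were lower and those of 2 repressor partners, MXD1 and MXI1, were higher. The other repressor partners, MXD3, MXD4 and MNT, were lower. MAX and MGA did not pass the test, and MYCL was too low to be tested. Of 8 tested members 2 were called higher and 4 lower with limma at an adjusted p under 0.05. These 6 of 8 stand beside 78.3% of 11445 tested genes called in either direction, 33.5% higher and 44.8% lower, so the share of members called is near the background. The same 6 members had groups that did not overlap, as had 79.3% of tested genes. Each of the 8 passed the filter, a value of 1 or more in 3 or more of the libraries, in both groups.

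**Figure D1:**
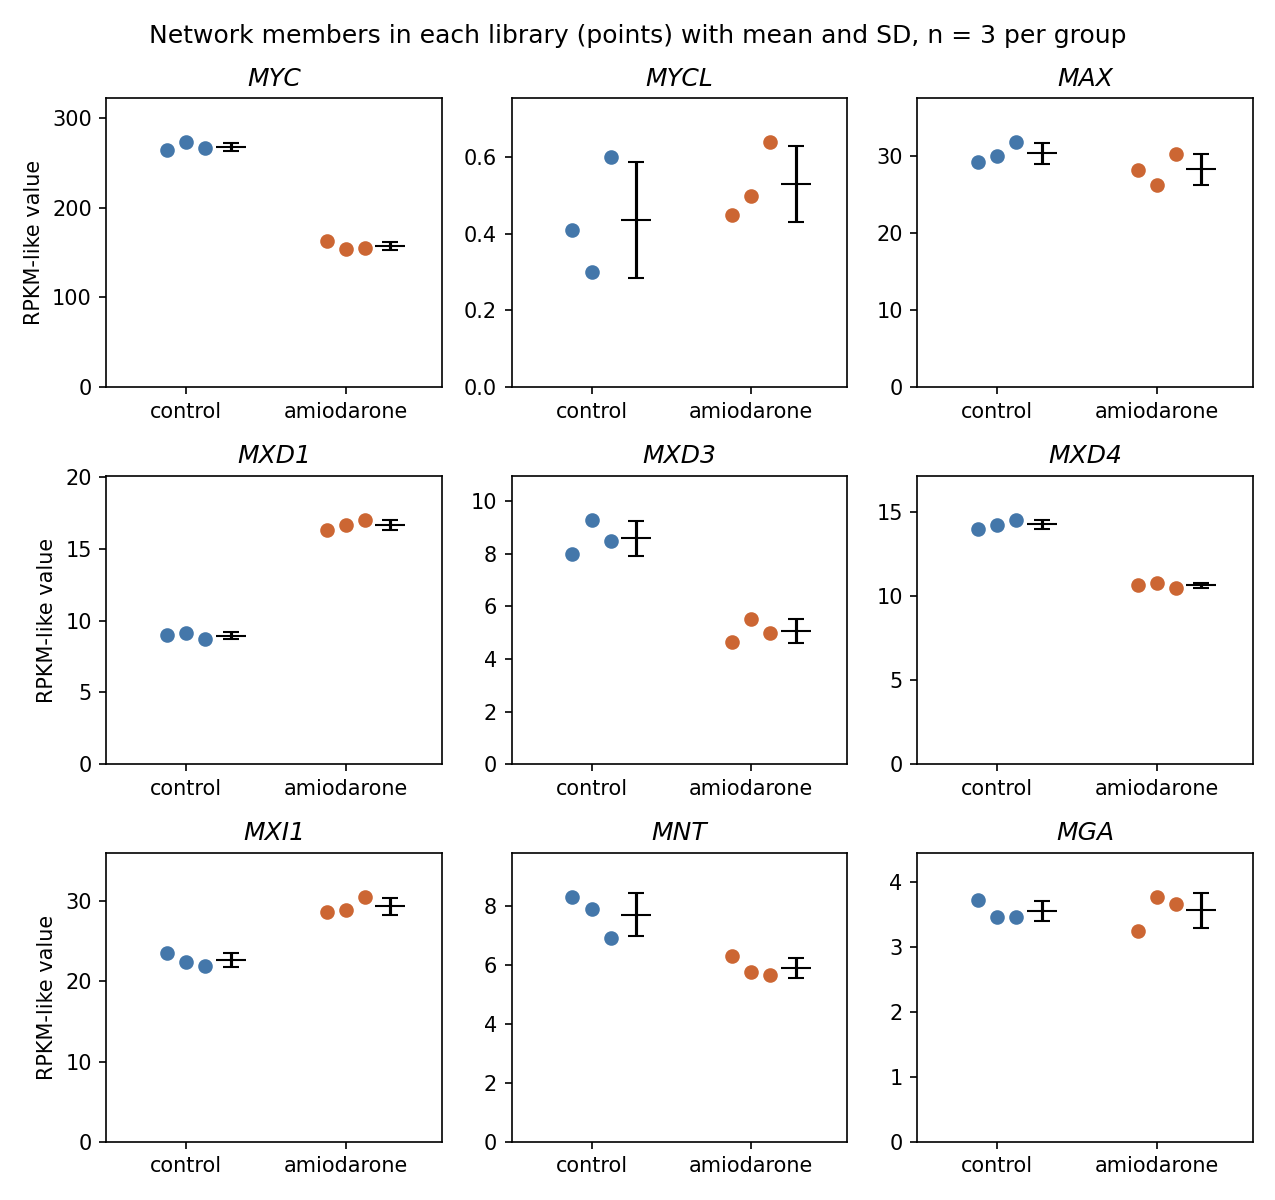
RPKM-like value (vertical axes, each from 0) of the 9 members in each of 3 control and 3 amiodarone libraries (points), with the mean and SD beside them. MYC, MXD3, MXD4 and MNT lie lower after amiodarone, MXD1 and MXI1 lie higher, and the groups overlap for MAX, MGA and MYCL.

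The table gives RPKM-like values, scaled to gene length and depth, and holds no read counts. Their sums ran from 534486 to 539030 in controls and from 568654 to 574483 after amiodarone. Genes at 1 or above in a library numbered 11129 to 11157 in controls and 11306 to 11323 after amiodarone. The groups overlap in neither. Steps between low values put the depth at roughly 17600000 to 18400000 reads or fragments per control library and 16300000 to 16600000 per amiodarone library. Only 44.6% to 53.3% of the low values were near a whole step. The depth was picked to make this share largest, so the estimate is weak. Of the promyelocyte markers MPO, a peroxidase of primary granules, was the highest, with up to 5998, and ELANE, neutrophil elastase, the lowest, with a mean of 20.5 in controls and 7.36 after amiodarone. Their summed level, most of it MPO, ran from 6837 to 6958 in controls and from 2993 to 3058 after amiodarone. CD33 alone among these markers was not called lower, with overlapping groups (91.7 ± 2.12 in controls, 95.5 ± 3.55 after amiodarone). The markers of T, B, erythroid, epithelial and fibroblast cells that have a row summed to 12.8 or less per library in each list. None of these was at 0 in all libraries, and CD79A, a B cell gene, was the highest of them at up to 11.5. The listed MS4A1 (B cell), HBB and HBA1 (erythroid), KRT19 (epithelial) and COL1A2 (fibroblast) have no row.

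MYC was the most abundant member by far. Its value was 264.46, 273.65 and 267.26 in the controls and 162.97, 154.65 and 155.38 after amiodarone. Every amiodarone library lay below every control library. The mean fell 1.70-fold, from 268.5 ± 4.71 to 157.7 ± 4.61 (SD, n = 3 per group). On log2(value + 1) the change was -0.76, with a 95% interval from -0.82 to -0.70 (standard error 0.027, limma adjusted p = 1.04e-09). Of the tested genes, 6.4% fell further on this scale. MYC ranked 210 among 17911 genes by mean level in controls and 363 after amiodarone, so it remained an abundant transcript. By the estimated depth its values stand for about 7601 to 14758 reads. The gene lies at chr8:127735434-127741434, plus strand (GENCODE 29, GRCh38), and none of its exonic bases overlaps another annotated gene. Protein was not measured here, and an RNA level does not tell copy number from transcription per copy.

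MYCL, a MYC relative, was close to the floor. Its values were 0.41, 0.3 and 0.6 in controls and 0.45, 0.5 and 0.64 after amiodarone, which are about 27 to 56 estimated reads. The groups overlap, and no difference was detectable at this depth.

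MAX, the dimer partner that the network shares, had 29.22, 30.05 and 31.85 in controls and 28.26, 26.33 and 30.29 after amiodarone. These groups overlap. The log2 change was -0.10, with an interval from -0.21 to 0.01 (limma, adjusted p = 0.0902). It was called lower with scaling to equal sums (log2 change -0.19, adjusted p = 0.00517) and without amiodarone replicate 3 (log2 change -0.15, adjusted p = 0.0151). MAX lies at chr14:65006174-65102695, minus strand.

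MGA, a very large protein with a T-box as well as a zipper for MAX, belongs to the PRC1.6 repressor complex. Its values were 3.73, 3.46 and 3.46 in controls and 3.25, 3.77 and 3.67 after amiodarone. The groups overlap, and the interval of the log2 change ran from -0.14 to 0.15 (limma, adjusted p = 0.968).

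MXD1, also called MAD1, showed the largest rise of the members. It had 9, 9.15 and 8.72 in controls and 16.31, 16.62 and 17.02 after amiodarone. The lowest amiodarone library was above the highest control library. The mean rose 1.86-fold, from 8.96 ± 0.218 to 16.7 ± 0.356, a log2 change of 0.83 (standard error 0.041, limma adjusted p = 1.28e-08). Of the tested genes, 4.4% rose further. MXD1 lies at chr2:69897688-69942945, plus strand. Other genes on that strand, mainly SNRNP27, a splicing factor gene, share 3.7% of its exonic bases; SNRNP27 itself rose from 23.1 ± 0.797 to 33.3 ± 1.59 (limma, adjusted p = 7.15e-07).

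MXI1, the family member also called MXD2, was the most abundant repressor partner in both groups. It had 23.57, 22.45 and 21.83 in controls and 28.62, 28.83 and 30.47 after amiodarone, without overlap. The mean rose 1.30-fold, from 22.6 ± 0.882 to 29.3 ± 1.01 (log2 change 0.36, standard error 0.040, limma adjusted p = 8.55e-06). In controls MXI1 lay below MAX in every library, and after amiodarone the ranges of MXI1 and MAX overlapped.

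MXD3 and MXD4, the other MXD repressors, went down. MXD3 had 7.98, 9.29 and 8.47 in controls and 4.65, 5.53 and 5 after amiodarone, without overlap. Its mean fell 1.70-fold, from 8.58 ± 0.662 to 5.06 ± 0.443 (log2 change -0.66, standard error 0.068, limma adjusted p = 5.03e-06). MXD3 has the largest exon overlap of the members. Of its exonic bases (chr5:177301461-177312757, minus strand), 22.5% lie opposite other genes, mainly PRELID1, and 18.0% are shared with genes on its own strand, mainly RAB24. PRELID1, a mitochondrial lipid transfer gene, had 166.8 ± 11.9 and 160.6 ± 1.71 (limma, adjusted p = 0.284), and RAB24, a small GTPase gene, rose from 19.4 ± 1.02 to 24.6 ± 0.972 (limma, adjusted p = 4.81e-05). Neither neighbour was lower past the test; their part in the MXD3 value was not tested.

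MXD4 had 14.01, 14.24 and 14.56 in controls and 10.65, 10.81 and 10.52 after amiodarone. The groups are well apart relative to their spread. Its mean fell 1.34-fold, from 14.3 ± 0.276 to 10.7 ± 0.145 (log2 change -0.39, standard error 0.039, limma adjusted p = 4.22e-06). MNT, a larger repressor that is present in both resting and dividing cells, had 8.31, 7.92 and 6.91 in controls and 6.3, 5.76 and 5.68 after amiodarone. Its control libraries vary more, yet the lowest still exceeds the highest amiodarone library. The MNT mean fell 1.30-fold, from 7.71 ± 0.723 to 5.91 ± 0.337 (log2 change -0.33, standard error 0.067, limma adjusted p = 8.92e-04). Other genes on the opposite strand, mainly AC006435.1, overlap 12.2% of the MNT exonic bases.

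Of the members with a promoter entry, MXD4 and MNT have a canonical E-box in the window searched. These RefSeq windows (GRCh38.p14) run from 250 bases before to 50 bases after a transcription start, and 8 of the 9 members have an entry, with 13 windows in all. The motif CACGTG, which reads the same on both strands, was found in 1 window each of MXD4 and MNT. It was in none of the windows of MAX, MXD1, MXD3, MXI1, MGA and MYCL. Among all 35116 windows 7.26% hold it, and among 13533 windows of tested genes 9.71% do. The stretches below show where the site that MYC and its rivals read occurs in genes of the family, with the motif in capitals. In MXD4 it begins 238 bases before the start (chr4:2262315-2262359, minus strand) and in MNT 193 bases before it (chr17:2401221-2401280, minus strand). Neither stretch overlaps an annotated exon.
MXD4: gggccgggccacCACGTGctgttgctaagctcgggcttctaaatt
MNT: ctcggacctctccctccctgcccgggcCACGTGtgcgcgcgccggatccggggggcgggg
A match of letters is a description of the sequence and not evidence of binding, which was not measured here.

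**Figure D2:**
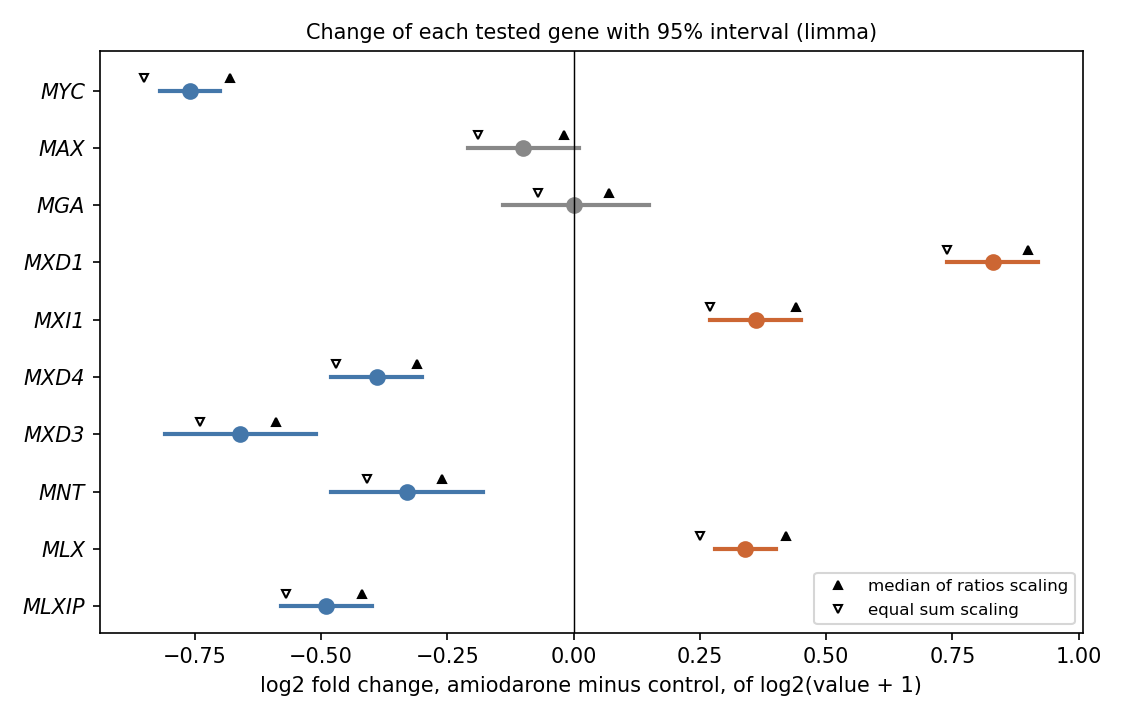
Log2 fold change of log2(value + 1), amiodarone minus control (horizontal axis), with its 95% interval from limma, for the 8 tested members and for MLX and MLXIP. Orange was called higher, blue lower and grey not called; triangles give the change under other scalings, which move MYC between -0.85 and -0.68 and MXD1 between 0.74 and 0.90.

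Values per length allow members to be set side by side within a library. In controls the order of mean levels was MYC, MAX, MXI1, MXD4, MXD1, MXD3, MNT, MGA and MYCL. The ranges of MXD1 and MXD3 overlapped there, as did those of MXD3 and MNT. After amiodarone the order was MYC, MXI1, MAX, MXD1, MXD4, MNT, MXD3, MGA and MYCL, and only MXI1 and MAX overlapped among neighbours. MXD1 thus moved from beside MXD3 to above MXD4.

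The make-up of the repressor partners shifted more than their total. The summed value of MXD1, MXD3, MXD4, MXI1 and MNT was 62.9, 63.0 and 60.5 in controls and 66.5, 67.5 and 68.7 after amiodarone. These sums do not overlap as deposited, but with scaling to equal sums they do (64.2 ± 1.32 and 65.5 ± 1.38). MXD1 made up 14.4% ± 0.0985 of this sum in controls and 24.6% ± 0.134 after amiodarone (SD, n = 3 per group). MXI1 made up 36.4% ± 0.978 and 43.4% ± 0.888. The shares of MXD3 (13.8% ± 1.03 and 7.48% ± 0.625), MXD4 (23.0% ± 0.956 and 15.8% ± 0.398) and MNT (12.4% ± 0.908 and 8.76% ± 0.632) were smaller after amiodarone.

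MYC over the summed repressor partners was 4.21, 4.34 and 4.42 in controls and 2.45, 2.29 and 2.26 after amiodarone. In all 6 libraries MYC transcripts still outnumbered the 5 partners together on the per-length scale. MYC over MXD1 was 29.4, 29.9 and 30.6 in controls and 10.0, 9.3 and 9.1 after amiodarone. MYC over MAX went from 8.85 ± 0.398 to 5.59 ± 0.402. Ratios within a library do not depend on scaling between libraries. They are given with no test, since they combine members chosen with earlier results known, and RNA ratios are not ratios of protein.

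**Figure D3:**
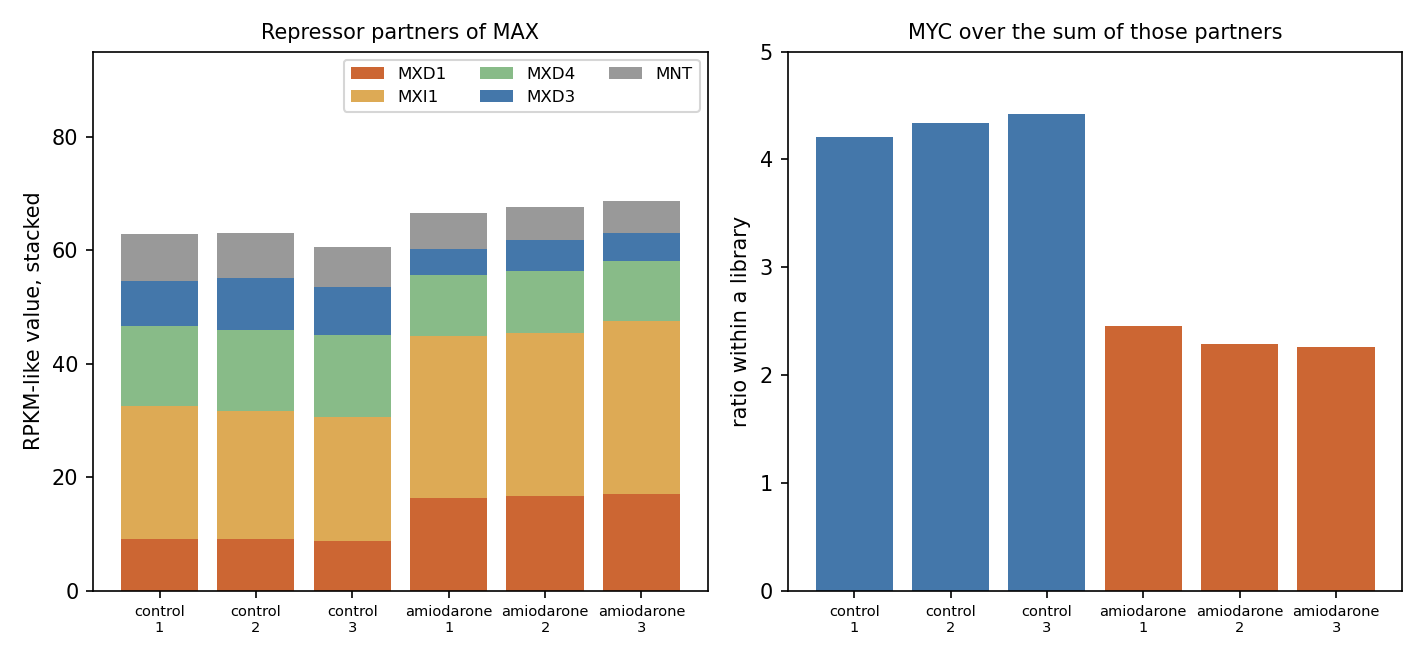
Left, RPKM-like values of the 5 repressor partners of MAX stacked for each library; right, MYC over their sum in the same libraries (both axes start at 0). The stack is 60.5 to 63.0 in controls and 66.5 to 68.7 after amiodarone with a larger MXD1 part, and the ratio is 4.21 to 4.42 against 2.26 to 2.45.

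A parallel branch of the network is built on MLX, which pairs with the glucose-sensing factors MLXIP (MondoA) and MLXIPL (ChREBP). MLX had 70.9 ± 1.53 in controls and 90.0 ± 2.18 after amiodarone, a 1.27-fold rise (limma, adjusted p = 1.03e-06). MLX was thus more abundant than MAX, 2.34 ± 0.120 times in controls and 3.19 ± 0.226 times after amiodarone. MLXIP fell from 11.0 ± 0.0971 to 7.55 ± 0.115 (limma, adjusted p = 1.10e-06), and MLXIPL was near 0 and not tested. Other genes on the opposite strand, mainly PSMC3IP, overlap 18.1% of the MLX exonic bases. Of the targets listed for this branch, TXNIP, which inhibits glucose uptake, fell from 116.6 ± 1.47 to 31.9 ± 0.859 (limma, adjusted p = 2.96e-12). ARRDC4, a related arrestin gene, had 2.26 ± 0.185 and 0.660 ± 0.165; it passed the filter only through its controls, so its test is not used.

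Genes that MYC is known to activate were mostly lower. Of 64 tested genes of this list 59 were called lower, 2 higher and 3 were not called, where 44.8% of all tested genes were lower. Their median log2 change was -0.62, against -0.06 over all tested genes. On this scale 12 fell by at least 2-fold, beside 297 of all 11445 tested genes. TERT, which passed the filter only through its controls, is among the 12. MCM4, a replicative helicase subunit, fell from 60.7 ± 0.891 to 15.7 ± 0.192 and UNG, a uracil glycosylase of DNA repair, from 47.6 ± 1.22 to 12.8 ± 0.723. LDHA, which makes lactate, fell from 468.8 ± 7.03 to 138.4 ± 2.53, and CAD, which starts pyrimidine synthesis, from 49.7 ± 0.604 to 18.0 ± 0.522. Each of these 4 had a limma adjusted p of 4.86e-11 or less.

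Some other abundant genes of that list changed less than LDHA. NPM1, a nucleolar chaperone gene, fell from 1538 ± 24.9 to 1303 ± 16.3 (limma, adjusted p = 1.29e-06). FBL, the rRNA methyltransferase fibrillarin, fell from 453.1 ± 2.26 to 349.4 ± 7.16 (limma, adjusted p = 5.40e-08). ODC1, the first enzyme of polyamine synthesis, fell from 169.7 ± 0.817 to 131.6 ± 3.92 (limma, adjusted p = 2.78e-07). The 2 called higher were the tRNA synthetase scaffold gene AIMP2 (43.6 ± 1.47 to 47.5 ± 2.71, limma adjusted p = 0.0241) and the hexokinase gene HK2 (30.7 ± 0.781 to 33.0 ± 1.51, limma adjusted p = 0.0364). The groups overlap in both genes, and 28.9% of the AIMP2 exonic bases lie opposite other genes, mainly EIF2AK1. Neither call held with scaling to equal sums or without control replicate 2. The HK2 call also ended without control replicate 3, amiodarone replicate 2 or amiodarone replicate 3, with adjusted p up to 0.127, and the AIMP2 call without control replicate 1 or amiodarone replicate 1, with adjusted p up to 0.0911 (limma). TERT, the telomerase catalytic subunit gene, passed the filter only through its controls (4.36 in controls, 1.21 after amiodarone); without it 58 of 63 were called lower. The list holds replication and ribosome genes that other factors also control, and the part of MYC in their change was not tested.

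Canonical E-boxes were common near the starts of these genes, which were listed because MYC is known to activate them. Their share is thus no separate evidence about MYC here. Of 64 tested genes of the list 52 have a promoter entry, and 29 of their 68 windows (42.65%) hold CACGTG, against 9.71% of windows of tested genes. The 29 genes with the motif had a median log2 change of -0.55, with 25 called lower and 2 higher. The 23 without it had -0.65, and all 23 were called lower. TERT, which passed the filter only through its controls, is among the 29 and among the 25 called lower. Examples of genes with the motif are SRM, spermidine synthase (chr1:11060185-11060244, minus strand), CDK4, a G1 kinase with a pair of sites in 1 stretch (chr12:57752499-57752528, minus strand), and LDHA (chr11:18394366-18394395, plus strand). MLX of the parallel branch is shown with them (chr17:42567038-42567067, plus strand). The stretches of CDK4 and LDHA overlap an annotated exon of their own gene; those of SRM and MLX overlap none.
SRM: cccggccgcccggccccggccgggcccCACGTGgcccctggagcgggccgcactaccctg
CDK4: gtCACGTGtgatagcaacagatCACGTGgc
LDHA: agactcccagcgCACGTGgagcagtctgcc
MLX: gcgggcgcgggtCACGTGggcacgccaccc
The motif begins 199 bases before the start in SRM, 216 and 196 in the CDK4 stretch, 185 in the LDHA stretch and 50 in MLX. The windows of CDK4 and LDHA each hold 1 more that is not shown, 101 and 87 bases before the start.

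Genes that MYC is known to repress were split. Of 11 tested genes 7 were called higher and 3 lower, beside 33.5% higher and 44.8% lower over all tested genes. Their median log2 change was 0.39, with 0.58 under scaling by the median of ratios, 0.33 under equal sums and 0.11 without a filter on low values. CDKN1A, the cell cycle inhibitor p21, rose from 6.54 ± 0.237 to 18.6 ± 0.375 (limma, adjusted p = 4.00e-10). DDIT3, the stress factor CHOP, rose from 19.4 ± 1.15 to 120.8 ± 0.0436 (limma, adjusted p = 2.69e-12). FTH1, ferritin heavy chain, rose from 930.5 ± 7.42 to 2328 ± 65.3 (limma, adjusted p = 6.88e-12). In FTH1 62.4% and in DDIT3 31.6% of exonic bases lie opposite other annotated genes. CEBPA, a granulocyte lineage factor, went the other way, from 255.8 ± 4.82 to 93.7 ± 1.81 (limma, adjusted p = 6.88e-12), with 43.4% of its exonic bases opposite other genes. NDRG1, a stress and differentiation gene, fell from 29.3 ± 0.875 to 15.9 ± 0.114 (limma, adjusted p = 3.87e-09).

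**Figure D4:**
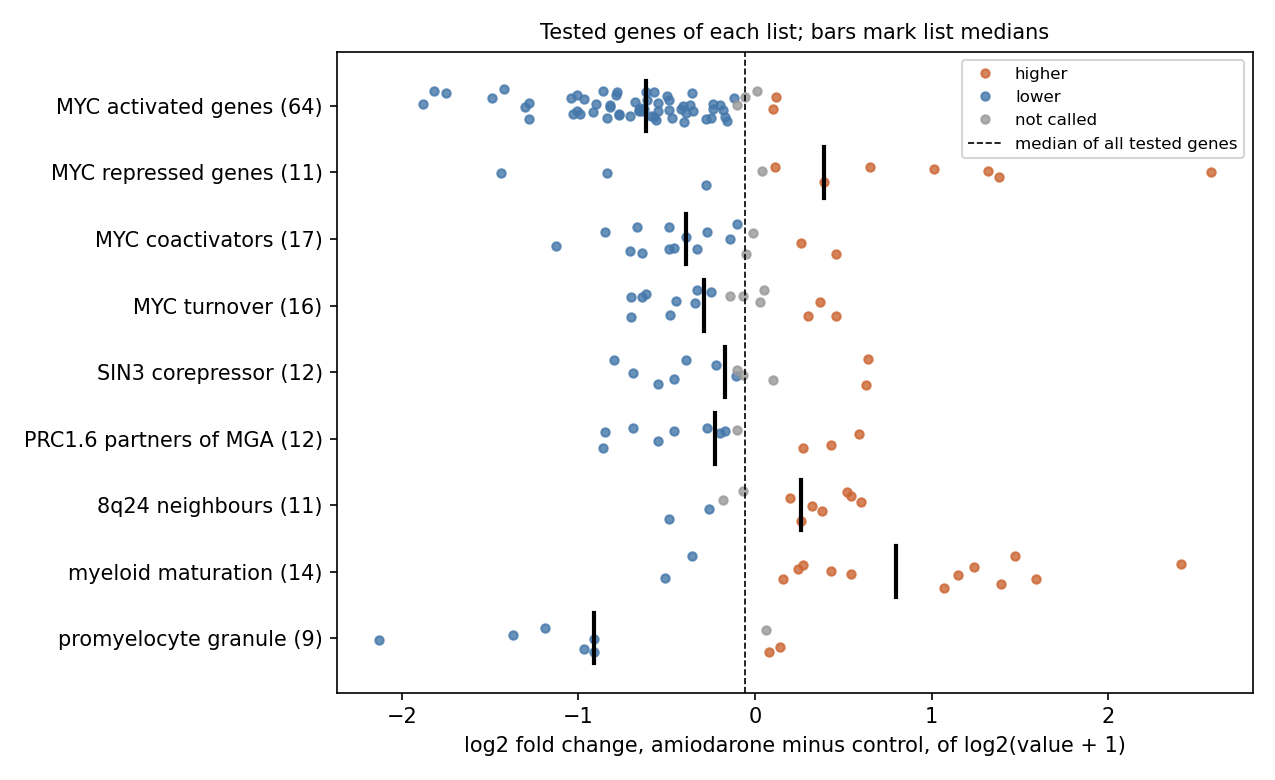
Log2 fold change of log2(value + 1), amiodarone minus control (horizontal axis), for each tested gene of 9 fixed lists (rows, number tested in brackets), coloured by call; black bars are list medians and the dashed line is the median of all tested genes, -0.06. Genes activated by MYC lie mostly left of the line with a median of -0.62, and myeloid maturation genes mostly right of it with 0.80.

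Cofactors that MYC uses to open chromatin and start transcription were mostly lower. Of 17 tested coactivator genes 13 were called lower and 2 higher, with a median of -0.39, where 44.8% of all tested genes were lower and 33.5% higher. RUVBL2, a helicase of the TIP60 complex, fell from 120.5 ± 3.47 to 73.3 ± 1.50 (limma, adjusted p = 3.31e-09), and ACTL6A, an actin-like subunit of the same complex, from 37.2 ± 0.896 to 16.5 ± 1.12 (limma, adjusted p = 3.02e-09). WDR5, a scaffold that holds MYC on chromatin, fell from 15.5 ± 0.344 to 8.16 ± 0.840 (limma, adjusted p = 2.90e-07). KAT2A, a histone acetyltransferase, fell from 54.6 ± 1.07 to 43.2 ± 0.437, and SMARCB1, a chromatin remodeller subunit, from 57.4 ± 1.09 to 52.1 ± 3.03 (limma, adjusted p = 1.19e-06 and 0.00827). KAT2A shares 10.7% of its exonic bases with genes on the same strand, mainly AC099811.2. SMARCB1 has 17.7% of its exonic bases opposite other genes, mainly DERL3, and its call ended with scaling by the median of ratios (log2 change -0.06). The 2 that rose were KAT5, the TIP60 acetyltransferase (24.7 ± 1.79 to 34.4 ± 1.94, limma adjusted p = 1.33e-05), and ZBTB17, the MIZ1 factor through which MYC represses (14.6 ± 0.618 to 17.7 ± 0.0808, limma adjusted p = 1.24e-04). KAT5 has 38.6% of its exonic bases opposite other genes, mainly RNASEH2C.

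Genes that control the stability of MYC protein moved both ways. Of 16 tested genes 9 were called lower and 3 higher, with a median of -0.29. These 12 of 16 called are near the 78.3% called over all genes (44.8% lower and 33.5% higher). FBXW7, the ubiquitin ligase subunit that marks phosphorylated MYC for degradation, rose from 6.25 ± 0.437 to 8.37 ± 0.378 (limma, adjusted p = 1.23e-04). PPP2R5A, a phosphatase subunit that promotes MYC turnover, rose from 18.3 ± 1.29 to 25.6 ± 0.830 (limma, adjusted p = 6.14e-06). AURKA, a kinase that shields MYC family proteins from FBXW7, fell from 32.7 ± 0.998 to 19.7 ± 0.512 (limma, adjusted p = 1.98e-08). SET, a phosphatase inhibitor, fell from 198.7 ± 1.64 to 145.3 ± 2.76 (limma, adjusted p = 2.18e-08), and the ligase gene SKP2 from 17.1 ± 0.815 to 10.1 ± 0.368 (limma, adjusted p = 1.42e-07). STUB1, a chaperone-linked ligase, fell 1.27-fold (35.3 ± 2.27 to 27.7 ± 0.574, limma adjusted p = 3.37e-05). For STUB1, 42.4% of the exonic bases lie opposite other genes, mainly JMJD8.

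Genes of the SIN3 corepressor that MXD and MNT proteins recruit went both ways. Of 12 tested, 7 were called lower and 2 higher, with a median of -0.17, and these 9 of 12 are likewise near the background of 78.3% (44.8% lower and 33.5% higher). The deacetylase genes HDAC1 (75.5 ± 2.15 to 46.4 ± 0.817) and HDAC2 (71.5 ± 1.88 to 48.5 ± 1.79) fell, as did the histone chaperone gene RBBP7 (57.0 ± 1.06 to 32.3 ± 1.44), each with a limma adjusted p of 7.03e-08 or less. SAP18 fell from 52.5 ± 0.380 to 45.0 ± 1.01 (limma, adjusted p = 3.40e-05). ARID4A rose from 7.61 ± 0.284 to 12.4 ± 0.491 and its relative ARID4B from 7.53 ± 0.591 to 12.2 ± 0.635 (limma, adjusted p = 3.67e-07 and 2.17e-06). Genes on the same strand, mainly RBM34, share 14.5% of the ARID4B exonic bases.

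Partners of MGA in the PRC1.6 complex also went both ways, while MGA itself was not called. Of 12 tested genes 8 were called lower and 3 higher, with a median of -0.23, beside 44.8% and 33.5% of all tested genes. HDAC1, HDAC2, WDR5 and CBX3 are in another list as well. TFDP1, the dimer partner of E2F factors, fell from 109.0 ± 1.05 to 59.5 ± 0.992 (limma, adjusted p = 2.78e-10). CBX3, a heterochromatin protein gene, fell from 75.9 ± 1.35 to 66.1 ± 3.98 (limma, adjusted p = 9.29e-04). The related genes RYBP (12.6 ± 0.144 to 19.5 ± 0.745) and YAF2 (7.75 ± 0.154 to 10.8 ± 0.751), which bind the RING1 ligases, rose (limma, adjusted p = 1.69e-07 and 2.31e-05).

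Few of the genes near MYC on 8q24 were called lower as MYC was. Of 16 listed neighbours 13 have a row and 11 were tested; 7 were called higher and 2 lower, where 33.5% and 44.8% of all tested genes were, and their median log2 change was 0.26. With scaling to equal sums 6 were higher and 4 lower. TRIB1, a pseudokinase that targets CEBPA protein for degradation, fell from 55.2 ± 0.386 to 39.2 ± 1.17 (limma, adjusted p = 8.93e-08), and WASHC5, an endosomal WASH complex gene, from 7.64 ± 0.434 to 6.19 ± 0.147 (limma, adjusted p = 8.55e-04). ASAP1, an ARF GTPase-activating gene, rose from 11.3 ± 0.164 to 16.9 ± 0.702 (limma, adjusted p = 5.19e-07). FAM49B, now CYRIB, a RAC1-binding gene, rose from 22.7 ± 0.452 to 28.5 ± 0.528 (limma, adjusted p = 5.76e-06). NDUFB9, a complex I subunit, had 100.7 ± 3.86 and 96.2 ± 6.37 (limma, adjusted p = 0.194). It was called lower with scaling to equal sums and without amiodarone replicate 1 (adjusted p = 0.0351), and 21.0% of its exonic bases lie opposite other genes, mainly MTSS1. Of the 7 called higher, GSDMC, a gasdermin gene (0.890 ± 0.214 and 1.85 ± 0.0917), and MTSS1 cleared the minimum only thanks to their amiodarone values. Without them 5 of 9 were called higher and 2 lower, with a median of 0.20. Which of these genes share the extra copies of MYC was not measured here.

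Myeloid maturation genes moved beside MYC and MXD1. Of 14 tested 12 were called higher and 2 lower, with a median of 0.80 (0.48 without a filter), where 33.5% of all tested genes were higher and 44.8% lower. FPR1, a formyl peptide receptor, rose from 4.09 ± 0.191 to 26.1 ± 0.634, and NCF1, an NADPH oxidase subunit gene, from 132.6 ± 3.60 to 369.7 ± 12.2, each with a limma adjusted p of 1.75e-11 or less. CEBPB, a monocyte and granulocyte factor, rose from 123.9 ± 3.35 to 180.1 ± 6.25, and the lysozyme gene LYZ, with 34.0% of its exonic bases opposite other genes, from 102.3 ± 4.43 to 123.1 ± 3.66 (limma, adjusted p = 4.65e-08 and 3.38e-05). NCF1 has near-identical pseudogene copies, so its reads are uncertain. CEBPE, a factor of late granulocyte genes, fell from 118.5 ± 1.48 to 83.0 ± 4.18 and the G-CSF receptor gene CSF3R from 74.4 ± 0.616 to 57.6 ± 0.874 (limma, adjusted p = 1.69e-07 and 2.65e-07). Of 9 promyelocyte genes 6 were called lower and 2 higher, beside the same shares of all genes, with a median of -0.91. Those lower include MPO (5962 ± 43.7 to 2613 ± 28.4), ELANE (20.5 ± 0.495 to 7.36 ± 0.805) and PRTN3 (472.5 ± 19.6 to 107.2 ± 3.01), each with a limma adjusted p of 7.26e-09 or less. MYB, a progenitor factor that often falls with MYC in maturing cells, rose from 112.2 ± 0.873 to 124.1 ± 3.64 (limma, adjusted p = 5.26e-04), a call that ended with scaling to equal sums (log2 change 0.05). SRGN, the granule proteoglycan serglycin, had 1927 ± 24.7 and 2031 ± 41.5 and was called higher (limma, adjusted p = 0.00823), but its log2 change of 0.08 turned to -0.02 with scaling to equal sums. The part of maturation in the changes of MYC and MXD1 was not tested. In bulk RNA, fewer cells of a type and less RNA per cell cannot be told apart.

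Many genes share the pattern of MYC or MXD1 over these 6 libraries. Among 1462 tested genes whose log2 change was within 0.25 of that of MYC, the most alike by Pearson r of log2(value + 1) were FIBP (67.8 ± 0.744 to 43.8 ± 1.11), C19orf48 (88.5 ± 1.07 to 58.3 ± 1.44) and TMEM250 (15.1 ± 0.221 to 9.55 ± 0.255). For MXD1, among 809 such genes, they were ACSS2 (24.8 ± 0.415 to 42.7 ± 0.714), VPS8 (8.45 ± 0.261 to 15.4 ± 0.239) and ASAH1 (62.5 ± 1.22 to 115.0 ± 3.81). As r here mostly follows the 2 groups, 667 and 315 genes exceeded 0.99, and the named ones stand out little from them.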

How the data were processed

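Stranded mRNA libraries were made from 3 control and 3 amiodarone samples of HL-60, per the labels. GRCh38.p12, featureCounts, STAR 2.5.3a and fastp 0.23.4 appear in the submitters' processing notes, with no roles stated. The annotation and the strand setting of counting are not stated in the labels. The authors deposited 1 normalized value per gene and library, headed only as expression per the file headers. As deposited, they resemble RPKM, scaled by the authors to gene length and depth, an inference from their decimals and the length-dependent steps between low values. Genes at 1 or more in 3 or more libraries, 11445 of 17911, were tested with limma 3.58.1 in R 4.3.3 (lmFit, eBayes with trend) on log2(value + 1), a scale that understates changes of low genes. Adjustment was by Benjamini-Hochberg over all tested genes. The code was tested on simulated data. Folds of single genes are ratios of group means.

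At the estimated depth, which is rough, the members' values stand for 27 to 14758 reads. Among genes at 1 or more in the first library of a pair, no pair of libraries shared more than 0.63% of values. Symbols turned into dates (26) were restored by Entrez ID. Overlaps are from GENCODE 29 and promoter windows from RefSeq (GRCh38.p14). Members and lists were chosen with earlier results of these data known; 11 lists are described by counts and medians, with no set test. Named genes are the members, and per list the 3 highest by level and the 2 largest called rises and falls, with CDKN1A, ODC1, CAD, TXNIP and TRIB1 added; TERT, MTSS1, SRM, CDK4 and overlapping neighbours were named after their values were seen. A few genes covered by this rule are not reported here. Alternatives covered scaling, pseudocount, filter, trend, replicate block and leaving out each library.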

Additional observations from a re-analysis of the deposited data

How the results depend on the processing

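The direction and call of MYC, MXD1, MXD3, MXD4, MXI1 and MNT were the same under all 14 alternatives run for each. The log2 change ranged from -0.85 to -0.68 for MYC, 0.74 to 0.90 for MXD1, 0.27 to 0.44 for MXI1, -0.75 to -0.59 for MXD3, -0.47 to -0.31 for MXD4 and -0.41 to -0.26 for MNT. MAX ranged from -0.19 to -0.02, and 2 alternatives called it lower; MGA was from -0.07 to 0.07. Scaling shifts all genes: the median log2 change was -0.06 as deposited, 0.01 with the median of ratios and -0.14 with equal sums. Without a filter it was 0.00 over all 17911 rows, and it stayed at -0.06 over the genes tested before. The share of calls that were higher was 42.8%, 51.1% and 34.4% with the 3 scalings.

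In the list of genes activated by MYC, 57 to 61 were called lower in every alternative, while the number called higher was 0 with equal sums, without a filter and without a trend, 1 with the replicate block, 3 with the median of ratios and 0 to 1 without any 1 library. With equal sums SRGN turned to -0.02, 4 neighbours on 8q24 in place of 2 were called lower, and 0 of the 2 promyelocyte genes stayed called higher; without a trend 1 did. ARRDC4 was not tested at a minimum value of 5 or without any 1 control library, which leaves 1 Mondo target. Same-numbered libraries did not deviate together (r = -0.155, -0.018 and -0.023). With 3 libraries per group this cannot exclude that the numbers pair them. With the replicate block 3748 genes in place of 3832 were called higher and 5022 in place of 5127 lower, and MYC was at -0.76. Depth limits what can be said of MYCL.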
